A study of Mus musculus with 42 samples.

Results

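Interferon-induced antiviral genes of the Ifit, Mx and Oas families were chosen by symbol, 10 of the 21979 genes measured: Ifit1, Ifit2, Ifit3, Ifit3b, Mx1, Mx2, Oas2, Oas3, Oasl1 and Oasl2. The libraries came from bone marrow-derived macrophages of male C57Bl6/J mice aged 6 to 12 weeks, cultured for 7 days with medium conditioned by L929 cells. Cells of wild-type mice (WT) were compared with cells without the nuclear receptor Nur77, encoded by Nr4a1 (KO), and received 100 ng/ml lipopolysaccharide (LPS), a cell wall component of bacteria, for 0, 1 or 18 h. Chromatin immunoprecipitation with sequencing (ChIP-seq) was done for RNA polymerase II (Pol II) and for H3K27ac, acetylation of lysine 27 on histone H3, which is found where promoters or enhancers are in use. The 6 groups comprised 3 libraries each for either antibody, plus 1 input library each that was sequenced without immunoprecipitation. The KO was a whole-body deletion, made by crossing loxP-flanked Nr4a1 with a Cre line, and the WT mice were littermates. The genotype label of the KO libraries names only Cre, while the study's methods describe KO mice without Cre, and a part of Cre in the differences was not tested. The study's methods call the ChIP-seq replicates biological, but no label says that the 3 libraries of a group came from separate mice or cultures, so the p-values measure only the spread between these samples, which may be technical.

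Type I interferon, released by macrophages after LPS, acts through its receptor on the kinases Jak1 and Tyk2, which activate transcription factors that bind interferon-stimulated response elements. The genes described here are classical targets of that pathway, and several can also be switched on directly by interferon regulatory factors before interferon is made. Ifit proteins bind viral RNA that lacks the host's cap methylation and hold back its translation. Mx proteins are dynamin-like GTPases that block viral replication. Oas enzymes sense double-stranded RNA and make oligoadenylates, signals for the breakdown of RNA, and the Oas-like proteins Oasl1 and Oasl2 belong to the same family.

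The genes lie in 5 loci on 3 chromosomes (GRCm38, the assembly behind mm10; GENCODE vM21). The Ifit genes follow each other on the plus strand of chromosome 19: Ifit2 (chr19:34550694-34576419), Ifit3 (chr19:34583531-34588731), Ifit3b (chr19:34607970-34613401) and Ifit1 (chr19:34640871-34650009). Mx1 (chr16:97447035-97462907, minus strand) and Mx2 (chr16:97535308-97560900, plus strand) lie on chromosome 16. Mx2 is annotated as a polymorphic pseudogene, a gene that is intact in some mouse strains and disrupted in the reference. On chromosome 5, Oasl2 (chr5:114896936-114912234) lies before Oasl1 (chr5:114923240-114937915) on the plus strand, and Oas2 (chr5:120730333-120749853) lies beside Oas3 (chr5:120753098-120777661) on the minus strand.

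Promoter sequences from RefSeq (GRCm38.p6) covered 7 of the 10 genes in 8 windows of 300 bases, from 250 bases before the gene start to 50 bases after it. The start used for these windows and distances differs by some bases from the GENCODE start printed above. The core of the interferon-stimulated response element, searched as GAAANNGAAA on either strand, was found in 4 genes, namely Ifit1, Ifit3, Ifit3b and Oas3. Of all 32851 promoters in that table, 3.44% held it. The 250 bases before the start of these 4 genes are shown because the same element occurs at different distances in each, 5′ to 3′ on the gene's strand, with the matches in capitals.
Ifit1, chr19:34640639-34640888, plus strand: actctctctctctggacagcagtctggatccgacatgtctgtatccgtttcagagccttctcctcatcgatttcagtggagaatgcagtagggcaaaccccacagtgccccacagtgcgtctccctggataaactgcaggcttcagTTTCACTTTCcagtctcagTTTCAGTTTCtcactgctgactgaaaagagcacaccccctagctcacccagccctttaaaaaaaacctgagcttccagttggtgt
Ifit3, chr19:34583279-34583528, plus strand: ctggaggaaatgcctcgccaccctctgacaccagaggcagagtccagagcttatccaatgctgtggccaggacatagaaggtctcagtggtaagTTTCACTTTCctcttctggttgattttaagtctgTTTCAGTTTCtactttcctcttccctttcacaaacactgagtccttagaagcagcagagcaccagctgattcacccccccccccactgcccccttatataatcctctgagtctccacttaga
Ifit3b, chr19:34607707-34607956, plus strand: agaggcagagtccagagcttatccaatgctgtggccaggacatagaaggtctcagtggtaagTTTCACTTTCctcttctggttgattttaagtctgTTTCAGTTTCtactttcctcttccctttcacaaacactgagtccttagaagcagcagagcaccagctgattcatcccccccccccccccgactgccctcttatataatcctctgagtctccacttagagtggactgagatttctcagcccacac
Oas3, chr5:120777660-120777909, minus strand: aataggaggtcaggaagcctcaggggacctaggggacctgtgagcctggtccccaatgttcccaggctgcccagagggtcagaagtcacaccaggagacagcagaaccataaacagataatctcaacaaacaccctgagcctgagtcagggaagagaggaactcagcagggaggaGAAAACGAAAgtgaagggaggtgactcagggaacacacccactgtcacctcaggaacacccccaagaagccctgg
Ifit1, Ifit3 and Ifit3b each held 2 matches, TTTCACTTTC and TTTCAGTTTC, and Oas3 held 1 match, GAAAACGAAA. In Ifit1 the pair lay between 104 and 76 bases before the start, in Ifit3 between 156 and 113 and in Ifit3b between 188 and 145. The 64 bases around the pair were identical in Ifit3 and Ifit3b. The core of the gamma-activated site, TTCNNNGAA, was found once, in a gene without the other motif, as TTCCTGGAA in Ifit2, and in 8.30% of all promoters. These matches describe letters in a window and no binding was measured there.

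Pol II at a gene was summed as normalized tags (reads per 10 M reads of the library) in enriched regions from 500 bp before the gene to 500 bp after it. H3K27ac was summed likewise within 2500 bp of the gene start, and 0 means that no enriched region was found there. Pol II libraries held 21.7 to 36.1 M tags in WT and 23.2 to 35.2 M in KO, and H3K27ac libraries held 13.5 to 31.1 M in WT and 23.6 to 55.4 M in KO. The depth of H3K27ac libraries thus moved with genotype, and its part in the results was not tested. Inputs held 25.6 to 45.3 M tags. All 6 macrophage markers had Pol II in every group, with a summed level of 16622 to 43710 normalized tags. For Pol II, summed B cell markers reached 161 normalized tags (2 of 4 with a region, Pax5 at 0), T cell markers 128 (2 of 4, Cd3e and Cd8a at 0), dendritic cell markers 73.2 (3 of 4, Siglech at 0), neutrophil markers 45.3 (1 of 4, Ly6g, Elane and Mpo at 0) and fibroblast markers 6.21 (1 of 4). Pol II at Nr4a1, the targeted gene (chr15:101254269-101274795), was 189, 188 and 208 normalized tags in the WT libraries at 0 h and 87.8, 76.1 and 70.2 in the KO libraries (log2 change -1.22, limma adjusted p = 0.00012). The KO libraries were below every WT library but not at 0 there. Values of replicates over all genes correlated at 0.985 to 0.993 for Pol II and 0.910 to 0.994 for H3K27ac, and a pair of H3K27ac libraries stood apart at these genes: replicate 1 of KO at 1 h was the highest of its group at 9 of the 10 genes, and replicate 1 of KO at 18 h the lowest at 10 of 10. Fewer cells with Pol II at a gene and less Pol II per cell cannot be told apart in these bulk samples.

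Neighbouring genes of the set often shared one enriched region, since regions were stitched over short gaps. At 18 h a single region ran over Oas2 and Oas3 in all 6 Pol II libraries, over Ifit3 and part of Ifit2, and at 1 and 18 h over Oasl2 and Oasl1. Such neighbours have nearly the same value per kb and are not independent observations. Pol II of Ifit1 at 1 and 18 h came wholly from regions that also held the start of another gene, in either genotype. At 0 h that share of its Pol II was 54.8 to 74.3% in WT and 62.7 to 100% in KO. All of its H3K27ac came from such regions in every group. Ifit3 and Ifit3b also share sequence: 42.4% of the 50-base words of Ifit3 occur in Ifit3b, so reads may have been divided between them and their values are uncertain. Mx1 shares 3.83% of its words with Mx2.

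In resting WT macrophages all 10 genes had Pol II in all 3 libraries, at very different densities. Per kb of window, Mx1 was highest at 30.6 ± 1.79 normalized tags per kb (SD, n = 3), followed by Ifit3 at 25.4 ± 2.104, Oasl2 at 18.5 ± 1.47 and Oas2 at 13.6 ± 2.34, and none of these overlapped its neighbour in the order. Ifit3b, Ifit2 and Mx2 lay between 9.39 and 9.57 and could not be ordered. Ifit1 and Oas3 overlapped at 4.44 each, and Oasl1 was lowest at 0.731 ± 0.233. Oasl1 and Oasl2 thus lay far apart at rest, before they came to share a region. Over the gene start alone (500 bp on either side) the order was tighter, from 31.3 per kb at Ifit3b to 11.4 at Oasl1.

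LPS raised Pol II at all 10 genes in WT macrophages at 1 h and again at 18 h. At 1 h against 0 h, 10 of 10 were higher (adjusted p under 0.05, limma), where 18.6% of all genes tested were called higher. At 18 h against 0 h it was 10 of 10 against 33.3% of all genes, and at 18 h against 1 h 10 of 10 against 66.5%. Changes are on the scale of log2(normalized tags + 10), which understates those of low genes. The median log2 change of the 10 genes was 2.94 at 1 h and 4.90 at 18 h, beside all-gene medians of -0.82 and -0.00. KO macrophages gave the same counts: 10 of 10 at 1 h against 20.7% of all genes, 10 of 10 at 18 h against 28.1% and 10 of 10 at 18 h against 1 h against 55.2%. The rise of Oas2 in KO at 1 h (0.37 ± 0.11) did not pass over the gene start alone (0.34, adjusted p = 0.061) or with the input subtracted (0.25, adjusted p = 0.066).

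**Figure D1:**
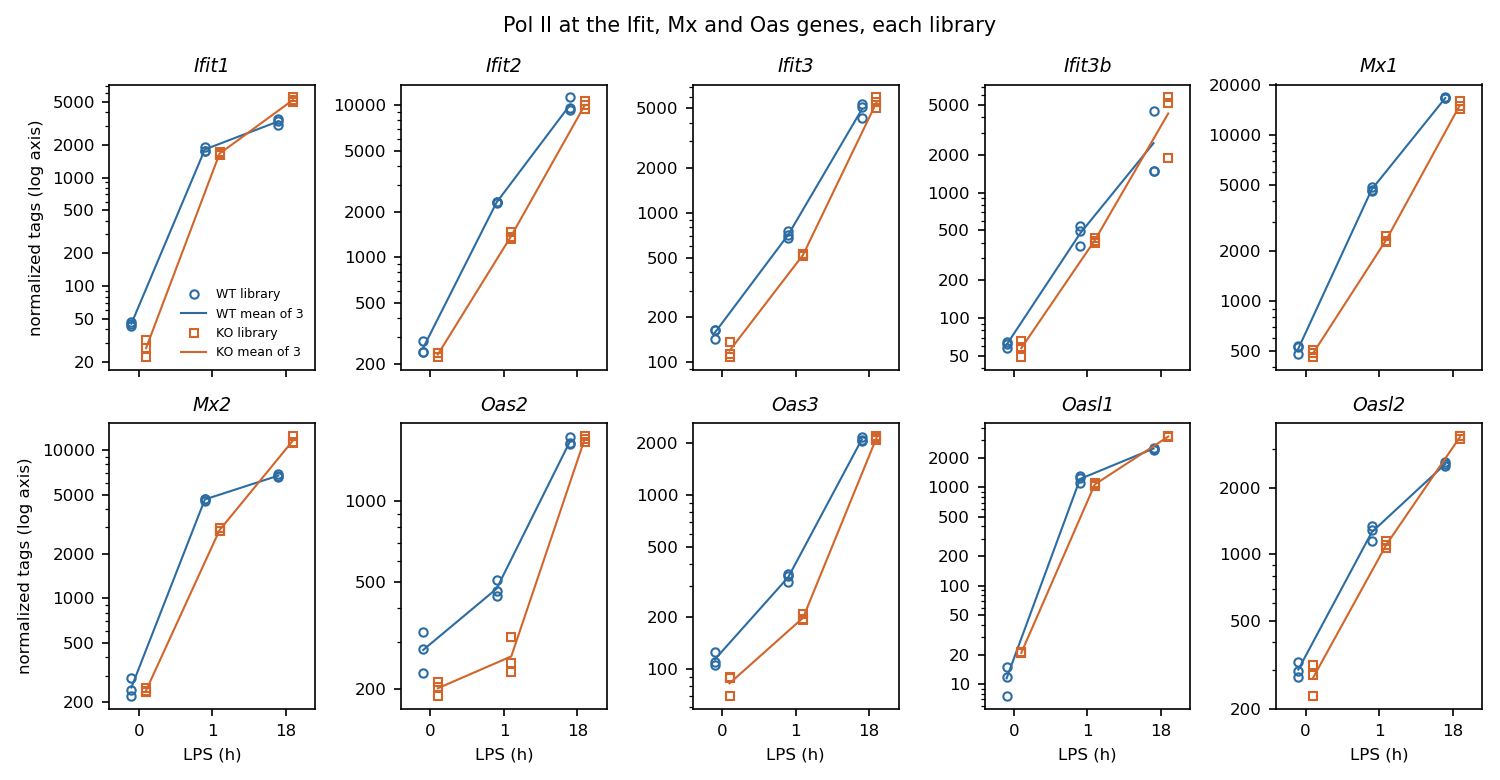
Pol II at each gene (normalized tags, log axis) against hours of LPS, with a symbol for each library (WT circles, KO squares) and lines through the means of 3. WT lies above KO at 1 h for Mx1, Mx2 and Ifit2, and KO lies above WT at 18 h for Mx2 and Ifit1.

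The size of the rise at 1 h differed between the genes. In its gene window Oasl1, an Oas-like protein without known synthetase activity, rose most at 1 h in WT. Its WT values were 7.57, 14.8 and 12.0 normalized tags without LPS, then 1109, 1291 and 1243 at 1 h and 2473, 2409 and 2534 by 18 h, and the 3 times did not overlap. Regions covered 2.35 to 5.07% of the Oasl1 window at rest, and its values at 1 and 18 h are its share of the region that also runs over Oasl2, so this size depends on how regions were shared out. Over whole loci the log2 change at 1 h in WT was 3.08 for Oasl2 to Oasl1, beside 4.10 for Mx2, 3.41 for the Ifit cluster, 3.25 for Mx1 and 1.08 for Oas2 to Oas3. Among the gene windows Ifit1 followed Oasl1, with 46.7, 45.1 and 43.3 without LPS, then 1760.1, 1770.2 and 1910.0 at 1 h and 3346, 3068 and 3455 by 18 h. At 1 and 18 h these values of Ifit1 come from regions that also hold the start of another gene. After 1 h Oasl1 had reached 49.1% of its 18 h level and Ifit1 55.1%. Oas2 had the smallest rise at 1 h, with 229.8, 282 and 326 without LPS and 446, 464 and 507 at 1 h, a log2 change of 0.75 ± 0.11 (SE), before it reached 1736, 1632 and 1655 at 18 h.

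Mx2 reached 69.1% of its 18 h Pol II level within 1 h in WT, the highest share of the 10 genes, and Ifit3 reached 14.5%, the lowest. Besides those of Oasl1 and Ifit1 given above, the other shares in WT were 49.1% for Oasl2, 28.2% for Mx1, 28.2% for Oas2, 22.8% for Ifit2, 19.1% for Ifit3b and 16.2% for Oas3. All 10 shares were lower in KO, among them 24.9% for Mx2, 32.0% for Ifit1, 32.6% for Oasl1, 15.5% for Mx1 and 9.52% for Ifit3. The 18 h rise over 1 h in WT depended on the scaling for 4 genes. With each library centred on its median gene, the log2 change of Ifit1 went from 0.85 to -0.01, that of Mx2 from 0.53 to -0.34 and those of Oasl1 and Oasl2 from 1.02 to 0.15 each (adjusted p = 0.085 and 0.14, limma), which left 6 genes higher and 1 lower. The all-gene median of that comparison was 0.81 in WT and 0.47 in KO.

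The order of the levels per kb also changed with LPS. At 1 h in WT, Mx1 stood at 279 ± 8.45 normalized tags per kb, above Ifit1 at 179 ± 8.26 and Mx2 at 174 ± 3.33, which overlapped. In KO at 1 h, Ifit1 was first at 164 ± 5.2, then Mx1 at 139 ± 6.7 and Mx2 at 108 ± 2.9, with no overlap. At 18 h in WT, Mx1 led at 988 ± 6.69 before Ifit3 at 793 ± 90.0, and in KO these genes overlapped at 897 ± 52 and 884 ± 73. Oas2 and Oas3, in one shared region, were lowest at 18 h in either genotype, with 81.6 in WT and 83.3 in KO for Oas3. Over the gene start alone the ranks named here for 1 and 18 h were kept. Other levels moved, such as Ifit2 at 18 h in WT, with 376 per kb over the gene and 130 over the start.

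The first genotype comparison concerned resting cells, with no LPS. Pol II was lower in KO at 4 genes (Ifit1, Ifit3, Oas2 and Oas3) and higher at 1 gene (Oasl1), while 2.73% of all genes were called lower and 4.24% higher. Ifit1 showed the largest change, with 22.0, 31.7 and 26.7 normalized tags in KO below the WT values given above (log2 change -0.59 ± 0.08 SE, adjusted p = 0.00019). Oas3 stood at 105, 109.8 and 126 in WT and 89.4, 88.4 and 69.7 in KO (-0.42 ± 0.09, adjusted p = 0.0063). Oas2 stood at 203, 213 and 188 in KO (-0.44 ± 0.11, adjusted p = 0.022). Ifit3 stood at 142, 165 and 165 in WT and 107, 136 and 114 in KO (-0.38 ± 0.10, adjusted p = 0.023).

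Every KO library lay below every WT library at these 4 genes and at Ifit2, which was not called (-0.13 ± 0.08), as in 6.93% of all genes, and above them at Oasl1, as in 14.1%. The enriched stretches of Oas2 and Ifit1 were also shorter in KO. The share of the Oas2 window inside regions was 69.7 to 84.0% in WT and 43.6 to 50.5% in KO, and that of Ifit1 was 22.2 to 27.01% in WT and 10.4 to 18.7% in KO. Oasl1 went the other way, with 21.0, 20.6 and 20.7 normalized tags in KO (0.53 ± 0.10, adjusted p = 0.0018), on 5.05 to 5.42% of its window. Over 500 bp on either side of the start, the higher call of Oasl1 stayed at 0 h and all 4 lower calls were lost, with Oas2 at 0.05. The Oasl1 call was lost with a pseudocount of 50 (0.21), with the input subtracted (0.11) and without replicate 3 of every group (0.56). Over the locus of Oasl2 and Oasl1 the value was -0.005. With only the groups compared, no gene of the set was called at rest. Without replicate 2 of every group 2 genes were called, and without replicate 3 1 gene, so the count at rest depended on the libraries kept.

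At 1 h of LPS, Pol II was lower in KO at 6 of 10 genes, Ifit2, Ifit3, Mx1, Mx2, Oas2 and Oas3, and higher at 0. Across all genes tested 7.52% were called lower, and the median gene was 0.24 higher in KO. In 9 of the 10 genes, all but Ifit3b, every KO library lay below every WT library, as in 10.6% of all genes tested. The median log2 change of the set was -0.56. The summed Pol II of the 6 macrophage markers also moved with genotype at this time, ranging from 32237 to 34237 normalized tags in WT and from 23770 to 24215 in KO, and its part in the result was not tested. Summed Pol II of the B cell markers at 1 h was 41.4 to 53.0 in WT and 59.5 to 77.8 in KO, and that of the T cell markers 26.4 to 28.8 in WT and 33.6 to 45.0 in KO. Neutrophil markers summed to 0 in all WT libraries at 1 h and to 8.62 to 17.0 in KO. Dendritic cell markers summed to 29.7 to 38.9 in WT and 44.6 to 53.6 in KO. The part of these markers was not tested either.

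Mx1 showed the largest difference at 1 h. Its WT libraries held 4671, 4578 and 4858 normalized tags and its KO libraries 2476, 2286 and 2277, 0.499 times the WT mean (log2 change -1.001 ± 0.06 SE, adjusted p = 1.3e-09). Resting Mx1 values overlapped between genotypes, at 482, 529 and 538 in WT and 486, 507 and 457 in KO. Mx2 behaved alike in direction: 4685, 4535 and 4691 in WT at 1 h and 2967, 2830 and 2841 in KO (0.621 times, -0.69 ± 0.08, adjusted p = 2.8e-06). The KO libraries of both Mx genes were close to each other and apart from WT.

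Among the Ifit genes, Ifit2 differed most at 1 h. It held 2322, 2261 and 2308 normalized tags in WT and 1472, 1355 and 1324 in KO, 0.602 times the WT mean (-0.73 ± 0.08, adjusted p = 1.8e-06). Ifit3 held 681, 706 and 754 in WT and 524, 530 and 512 in KO (0.732 times, -0.44 ± 0.10, adjusted p = 0.0016). Ifit1 did not pass the test; its KO libraries held 1712, 1662 and 1607 and its WT libraries the 1760.1, 1770.2 and 1910.0 given above (-0.13 ± 0.08, adjusted p = 0.23). Ifit3b overlapped between genotypes, at 494, 378 and 547 in WT and 399, 439.5 and 413 in KO.

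Both Oas genes were lower in KO at 1 h. Oas2 held 312, 250.03 and 231 normalized tags in KO beside 446, 464 and 507 in WT (0.560 times, -0.82 ± 0.11, adjusted p = 2.5e-05). Oas3 held 207, 192 and 190.3 in KO beside 349.7, 317 and 344 in WT (0.583 times, -0.75 ± 0.09, adjusted p = 5.8e-06). Over the start alone the changes were smaller, at -0.21 for Oas2 and -0.14 for Oas3, and did not pass, and regions covered 79.3 to 88.4% of the Oas2 window in WT and 47.2 to 67.0% in KO. Oasl1 and Oasl2, in one shared region, were 0.880 times WT each and did not pass (-0.18 ± 0.10 and -0.18 ± 0.09, adjusted p = 0.13 and 0.12). With libraries centred on the median gene, 9 genes were lower in KO at 1 h, Ifit1, Oasl1 and Oasl2 among them, and 21.4% of all genes were called lower.

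At 18 h Pol II was higher in KO at 4 genes, Ifit1, Mx2, Oasl1 and Oasl2, and lower at 0, where 7.61% of all genes were called higher and 13.5% lower. Of the 6 genes that were lower at 1 h, 1, Mx2, was among these 4. The macrophage markers summed to 41244 to 43710 normalized tags in WT and 35631 to 38491 in KO at 18 h, lower in KO at this time as well. The B cell markers summed to 106 to 121 in WT and 80.1 to 82.8 in KO and the T cell markers to 114 to 121 in WT and 68.5 to 73.9 in KO, and the part of these markers was not tested. Mx2 held 6888, 6626 and 6613 normalized tags in WT and 11238, 11135 and 12383 in KO, 1.73 times the WT mean (0.79 ± 0.08, adjusted p = 8.6e-07). Ifit1 held 5173, 4924 and 5457 in KO, 1.58 times the WT mean (0.66 ± 0.08, adjusted p = 2.2e-05). For Mx2 the KO level had thus been below WT at 1 h and was above it at 18 h, with no overlap at either time.

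Oasl1 and Oasl2 were 1.32 times WT at 18 h. Oasl2 held 2571, 2505 and 2635 normalized tags in WT and 3436, 3347 and 3434 in KO (0.40 ± 0.09, adjusted p = 0.0044), and Oasl1 held 3305, 3219 and 3303 in KO (0.40 ± 0.10, adjusted p = 0.0062). These calls were the weakest of the 4: Oasl1 was not called without replicate 3 of every group, and Oasl2 not without replicate 1, with log2 changes of 0.42 and 0.40. The other genes did not pass the test. Mx1 held 16801, 16585 and 16637 in WT and 14991, 14329 and 16068 in KO (-0.14 ± 0.06, adjusted p = 0.095), Ifit2 9655, 11243 and 9266 in WT and 9419, 10648 and 9974 in KO, and Oas3 2162, 2033 and 2061 in WT and 2177, 2129 and 2079 in KO.

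Ifit3 overlapped at 18 h as well, with 5379, 5080 and 4299 in WT and 5005, 5912 and 5526 in KO. Ifit3b split by library rather than by genotype. It held 1488, 1496 and 4459 in WT and 5192, 1906 and 5732 in KO, and the 3 high libraries were those in which its region ran on into the start of another gene. Its log2 change of 0.83 ± 0.37 did not pass (adjusted p = 0.12).

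**Figure D2:**
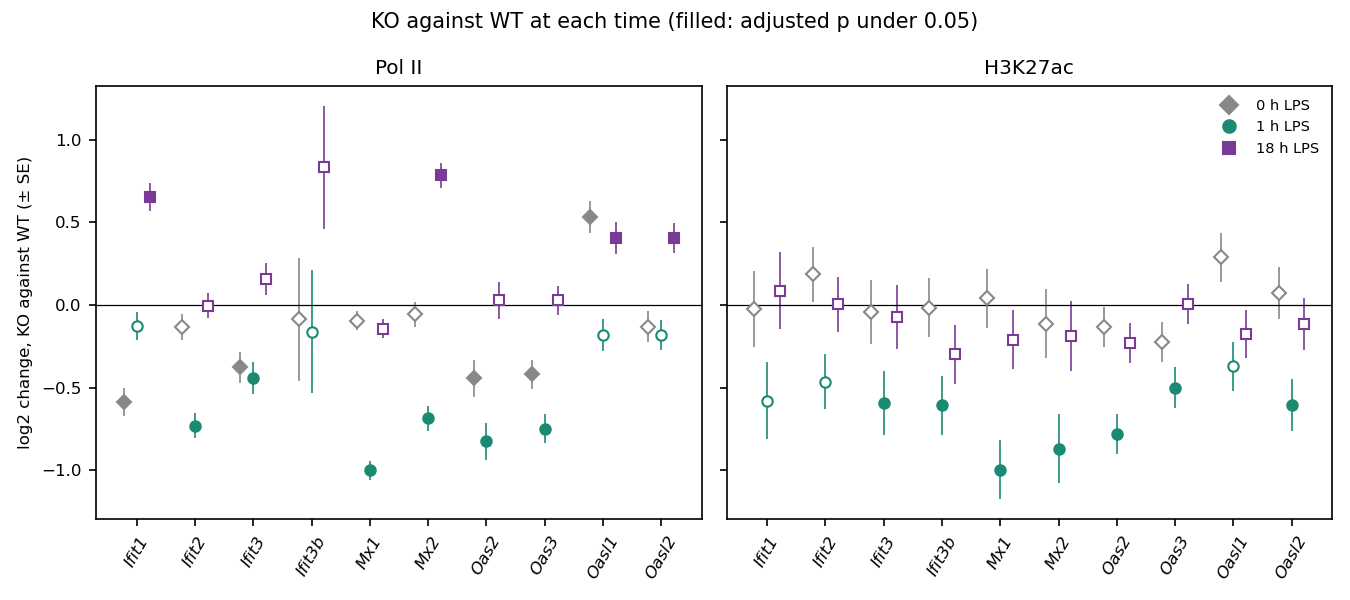
The log2 change of KO against WT for each gene (points, with bars of 1 SE) at 0, 1 and 18 h of LPS for Pol II on the left and H3K27ac on the right, filled where the adjusted p was under 0.05. Pol II points at 1 h lie at or below 0 down to -1.001 for Mx1, and at 18 h Mx2, Ifit1, Oasl1 and Oasl2 lie above 0.

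Whether the LPS response itself differed between genotypes was tested as the interaction of genotype and LPS. From 0 to 1 h the rise was smaller in KO at 4 genes, Mx1 (-0.91 ± 0.08, adjusted p = 1.4e-06), Oasl1 (-0.72 ± 0.14, adjusted p = 0.0019), Mx2 (-0.63 ± 0.11, adjusted p = 0.0007) and Ifit2 (-0.60 ± 0.11, adjusted p = 0.0014). It was larger in KO at Ifit1 (0.46 ± 0.12, adjusted p = 0.012). Across all genes 4.21% were called lower and 14.2% higher. The Ifit1 call was lost when any of the 3 replicate numbers was left out, with values from 0.30 to 0.55, with libraries centred on the median gene (0.24), with a pseudocount of 50 (0.19) and over the gene start alone (0.07, adjusted p = 0.74), and over the whole Ifit locus the value was -0.10. The Oasl1 call was lost without replicate 3 (-0.72), and over the locus of Oasl2 and Oasl1 the value was -0.23 (adjusted p = 0.10). Both calls start from the low resting values described above. The Ifit2 call was lost over the gene start alone, at -0.63 (adjusted p = 0.070).

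From 0 to 18 h the rise was larger in KO at 5 genes, Ifit1 (1.24 ± 0.12, adjusted p = 2.0e-06), Mx2 (0.84 ± 0.11, adjusted p = 4.5e-05), Ifit3 (0.54 ± 0.14), Oasl2 (0.53 ± 0.13) and Oas3 (0.45 ± 0.13), against 4.88% of all genes. Over the gene start alone 2 genes were called, with Ifit3 at 0.30, Oasl2 at 0.17 and Oas3 at 0.10. The Ifit1 value starts from low resting values, which were lower in KO, and over the whole Ifit locus the value was 0.57. Without replicate 2 of every group 3 genes were called and without replicate 3 2 genes.

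The comparison of the 1 h to 18 h rise between genotypes was added after these values had been seen. In it 9 of 10 genes rose more in KO (6.82% of all genes), all but Ifit3b, from 0.59 for Oasl1 and Oasl2 to 1.47 ± 0.11 for Mx2 (adjusted p = 4.0e-08). The all-gene median was -0.33, and 9 genes were also called with libraries centred on the median gene. Over the gene start alone 7 were called, with Oas2 at 0.24 and Oas3 at 0.17 in place of 0.85 and 0.78. Without replicate 3 of every group 7 were called as well, with Ifit3 at 0.45 and Oasl1 at 0.58 no longer passing. Whole loci keep neighbours of the set together, but they also take in the sequence between and beside the genes. In WT at 18 h the Ifit locus held 42598 normalized tags on average, and its gene windows 10055 (Ifit2), 4919 (Ifit3), 2481 (Ifit3b) and 3290 (Ifit1). No other loci were fitted, so no share of all features stands beside them. All 5 loci were lower in KO at 1 h: Mx1 -1.05, Oas2 to Oas3 -0.90, Mx2 -0.70, the Ifit cluster -0.37 and Oasl2 to Oasl1 -0.23, the last with adjusted p = 0.0097. At 18 h the Mx2 (0.83), Oasl2 to Oasl1 (0.41) and Ifit (0.29) loci were higher in KO, and the Mx1 (-0.13) and Oas2 to Oas3 (0.03) loci did not pass.

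H3K27ac around the gene starts rose with LPS at all 10 genes as well. At 1 h against 0 h 10 of 10 genes were higher in WT (25.3% of all genes) and 10 of 10 in KO (20.4%). At 18 h against 0 h it was 10 of 10 in WT (23.6%) and 10 of 10 in KO (18.5%). Ifit1 gained most at 1 h in WT, from 56.7, 61.6 and 69.0 normalized tags to 823, 621 and 828, with no overlap (log2 change 3.40 ± 0.23 SE). Its regions also held the start of another gene in every group.

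Between 1 and 18 h the acetylation of WT macrophages moved in both directions. It rose further at 5 genes, Ifit2, Ifit3b, Oas2, Oas3 and Oasl1 (29% of all genes higher), and fell at Mx2 (28.6% of all genes lower). Mx2 held 313, 319 and 355 normalized tags without LPS, then 1372, 1391 and 1355 at 1 h and 914, 913 and 962 by 18 h (-0.56 ± 0.21, adjusted p = 0.033). That fall was lost without replicate 2 (-0.54) or replicate 3 (-0.59) of every group, and over the whole Mx2 locus the change was 0.13. The Ifit3b rise (0.46 ± 0.18, adjusted p = 0.038) was lost under median centring, quantile normalization, over the start alone, with the input subtracted, with a replicate block and without replicate 3 of every group, where it stood at 0.27. Oas2 was not called over the start alone (0.36 in place of 0.57). Oas3 rose most, from 509, 516 and 535 at 1 h to 1516, 1449 and 1498 at 18 h (1.499 ± 0.12). In KO 9 of 10 genes rose from 1 to 18 h (17.2% of all genes), all but Mx2, and 5 genes did without replicate 2 of every group.

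Resting H3K27ac did not pass the test between genotypes at any of the 10 genes (0.769% of all genes called in either direction by limma). At an unadjusted p under 0.05 it was 0 of the 10 genes, against 10.1% of all genes. The libraries of the genotypes did not overlap at 6 genes at rest, as in 38.1% of all genes, with Ifit2, Oasl1 and Oasl2 above WT in KO and Mx2, Oas2 and Oas3 below it. At 18 h no gene of the set passed either (3.24% of all genes called), and 0 of 10 had an unadjusted p under 0.05, against 19.6% of all genes. All 10 genes overlapped between genotypes at 18 h, while 22.9% of all genes did not overlap. Without replicate 1 of KO at 18 h the count was again 0. Without replicate 1 of every group, Ifit3 alone was called at 18 h, higher in KO by 0.27, where it had been -0.07.

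At 1 h H3K27ac was lower in KO at 7 of 10 genes, Ifit3, Ifit3b, Mx1, Mx2, Oas2, Oas3 and Oasl2, where 7.43% of all genes were called lower, and all 10 genes were lower at an unadjusted p under 0.05, against 15% of all genes. Mx1 held 598, 567 and 588 normalized tags in WT and 428, 231 and 239.9 in KO (-0.997 ± 0.18, adjusted p = 0.0028). Oas2 held 527, 523 and 534 in WT and 319, 291 and 302 in KO (-0.78 ± 0.12, adjusted p = 0.0012). Mx2 held 1184, 622 and 566 in KO (-0.87 ± 0.21, adjusted p = 0.014), all below WT. The KO library with 428 at Mx1 and 1184 at Mx2 is replicate 1 in each case.

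That library decided how many genes were called. Without it, all 10 genes were lower in KO at 1 h (18.5% of all genes called lower), from -0.36 for Oas3 to -1.20 for Mx2 and -1.28 for Mx1. The count was 10 without replicate 1 of every group and 0 without replicate 2 or replicate 3 of every group, so that with either of these left out the call of every gene was lost. The log2 changes then stood at -0.86 and -0.87 for Mx1, -0.75 and -0.77 for Oas2 and -0.73 and -0.68 for Mx2, beside -0.997, -0.78 and -0.87 with all libraries. The summed H3K27ac of the macrophage markers at 1 h was 4633 to 4999.5 normalized tags in WT and 4771 to 5373 in KO. At 18 h it was 6208 to 6431 in WT and 4315 to 5780 in KO, with no overlap. The summed H3K27ac of the 4 neutrophil markers moved with genotype, from 20.3 to 29.4 in WT and 65.0 to 113 in KO at 1 h and from 72.4 to 86.4 in WT and 162 to 179 in KO at rest (2 of 4 with a region, Ly6g and Mpo at 0). Their Pol II at rest was 15.4 to 16.6 in WT and 39.3 to 45.3 in KO. The part of these markers in the results was not tested.

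**Figure D3:**
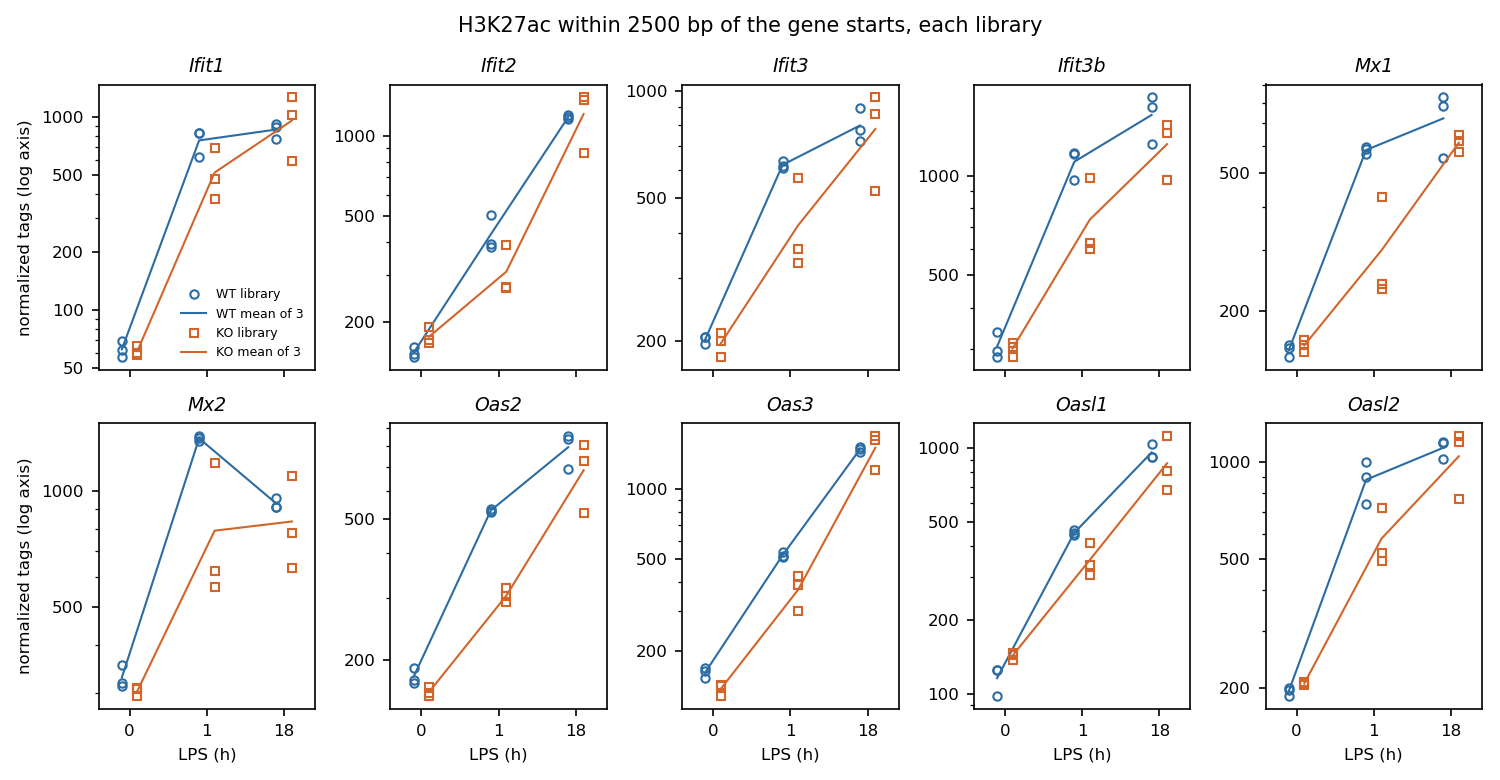
H3K27ac within 2500 bp of each gene start (normalized tags, log axis) against hours of LPS, with a symbol for each library (WT circles, KO squares) and lines through the means of 3. At 1 h the KO libraries of Mx1, Oas2 and Oas3 lie below the WT libraries, 1 KO library stands above the other 2 at Mx2, and at 18 h the genotypes overlap.

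The H3K27ac interactions passed at none of the genes in their windows. For 0 to 1 h limma called 0 of 10 genes (0.542% of all genes in either direction), with 7 at an unadjusted p under 0.05 (20.5% of all genes), and for 0 to 18 h 0 of 10 (0.629%), with 1 (13% of all genes). For the added 1 to 18 h interaction it was 0 of 10 (7.15%), with 5 (24.9% of all genes). Over whole loci, where all 5 were lower in KO at 1 h, the 1 to 18 h interaction passed at 4 of 5: Mx2 (1.28, adjusted p = 0.025), Mx1 (1.15, adjusted p = 0.041), Oasl2 to Oasl1 (0.93, adjusted p = 0.036) and Oas2 to Oas3 (0.63, adjusted p = 0.024). The Ifit cluster stood at 0.83 (adjusted p = 0.064). The loci were fitted with all libraries only, so the part of single libraries in these locus calls was not tested. No other loci were fitted, so no share of all features stands beside these counts. Without replicate 1 of KO at 1 h, 8 genes had a smaller 0 to 1 h gain in KO (14.3% of all genes called lower), all but Ifit1 and Oas3, and Mx1 stood at -1.32. The 1 to 18 h interaction gave 7 genes with a larger gain in KO without that library (10.5% of all genes) and 7 without replicate 1 of KO at 18 h (5.6% of all genes).

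Input libraries gave lower values in the same windows. In all 6 groups every ChIP library exceeded its input at all 10 genes, for Pol II as for H3K27ac. Input values still moved with genotype and time: over the Ifit2 window WT inputs held 48.8, 169 and 376 normalized tags at 0, 1 and 18 h and KO inputs 55.3, 127 and 23.3, and over Mx1 266 in WT at 18 h and 0 in KO. Each group has 1 input, so these values have no replicate. After subtraction of the input, Pol II at Oasl1 no longer passed at 0 h (0.11) nor in the 0 to 1 h interaction (-0.34).

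The genes that make and relay the interferon signal were examined for Pol II as well. Ifnb1, which encodes interferon beta, was listed at 0 in all resting libraries, held 161, 259 and 256 normalized tags in WT and 249.2, 253 and 313 in KO at 1 h, and did not pass between genotypes there (0.28 ± 0.21, adjusted p = 0.29). At 18 h it was listed at 0 in WT and held 9.54, 5.95 and 22.9 normalized tags in KO, near the 10 added before taking logs. It was called higher in KO there, in a test it entered through the KO libraries alone. Of the 5 genes on the route from LPS to interferon, 4 were higher in KO at 1 h, Tlr4, Ticam1, Ticam2 and Traf3, and 0 were lower, where 38.2% of all genes were called higher. The median change of that list was 0.24, beside an all-gene median of 0.24.

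Among the genes of interferon signalling, Irf7 (-0.79 ± 0.13), a transcription factor that amplifies interferon production, Stat2 (-0.47 ± 0.09), which carries the signal of the receptor to the nucleus, and the kinase Tyk2 (-0.36 ± 0.11) were lower in KO at 1 h. Irf9 (-0.23 ± 0.12, adjusted p = 0.12) did not pass. At 18 h Irf7 stood at -0.01 ± 0.13 and Stat2 at 0.08 ± 0.09.

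Of 12 other interferon-induced genes 9 were lower in KO at 1 h and 1, Ifih1, was higher, beside the 7.52% of all genes called lower and 38.2% called higher in this comparison, which the counts of the other lists at 1 h are also to be read against. Cmpk2 (-0.84 ± 0.16), Rsad2 (-0.56 ± 0.12) and Zbp1 (-0.44 ± 0.17) were among those lower. Ifih1, the sensor of long double-stranded RNA, held 14778, 14864 and 15233 in WT at 1 h and 19279.5, 17483 and 17661 in KO (0.28 ± 0.10, adjusted p = 0.026). Of the 3 negative regulators Usp18, which blocks the interferon receptor, was lower at 1 h (-0.93 ± 0.12) and higher at 18 h (0.40 ± 0.12), and Socs3 was lower at 1 h. Further genes of the Ifit and Oas families had 7 of 10 tested, of which 6 were lower at 1 h, among them Oas1a (-0.53 ± 0.10) and Oas1g (-0.70 ± 0.13). Of 10 early LPS genes outside the interferon system, 6 were lower in KO at 1 h, such as Tnf (-0.38 ± 0.10), and 1, Egr1, was higher.

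**Figure D4:**
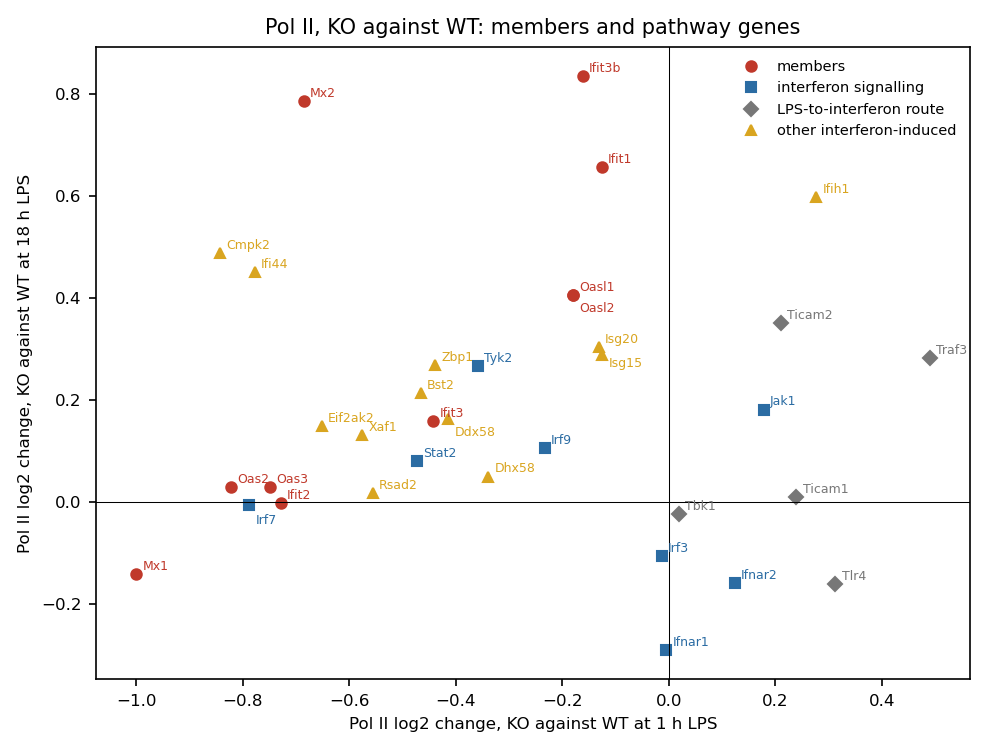
The log2 change in Pol II of KO against WT at 18 h (vertical axis) against that at 1 h (horizontal axis) for the 10 genes and genes of 3 pathway lists tested at both times, without Ifnb1, which was listed at 0 in WT at 18 h. Mx1 lies farthest left, at -1.001, Mx2 lies left of 0 and above 0, and the genes of the route from LPS to interferon lie right of 0.

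At 18 h the early LPS genes had 4 of 10 higher in KO, Ptgs2 (1.15 ± 0.19), Tnfaip3 (0.44 ± 0.06), Cxcl2 (0.35 ± 0.11) and Tnf (0.28 ± 0.10), and 1 lower, Egr1 (-0.45 ± 0.12), against 7.61% of all genes higher and 13.5% lower. The receptor genes Ifnar1 (-0.29 ± 0.06) and Ifnar2 (-0.16 ± 0.05) were lower and Ticam2 (0.35 ± 0.07) was higher. Cmpk2 (0.49 ± 0.16) and Ifih1 (0.60 ± 0.10) were higher in KO among the 12 other interferon-induced genes, and Ifit1bl2, which neighbours Ifit1 and shares regions with it, was higher among the family genes (0.61 ± 0.09). For H3K27ac at 1 h, 11 of the 12 other interferon-induced genes, 5 of the 6 family genes tested, all 3 negative regulators and, among signalling genes, Irf7 were lower in KO, against 7.43% of all genes. The route from LPS to interferon had 3 of 5 higher, against 11.1% of all genes.

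Among 4754 genes whose Pol II group means spanned at least 2 on the log2 scale, the pattern over the 6 group means most like the mean of the set was that of Cmpk2, a mitochondrial nucleotide kinase next to Rsad2, followed by Cd274, Arid5a, Tdrd7, Trim30a, H2-Q4, H2-K1, Saa3, Zbp1 and Il2ra. Their correlation with the set's mean lay between 0.9976 for Il2ra and 0.9996 for Cmpk2 across the 6 means, which share their libraries, and is given as a description. Within the set, the correlation of a gene with the mean of the others ranged from 0.890 for Oas2 to 0.998 for Oasl2.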

How the data were processed

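ChIP-seq for Pol II (18 libraries) and H3K27ac (18 libraries) and 6 inputs were analysed from 42 deposited region lists. According to the labels and methods, the authors used Skewer for trimming and HISAT2 2.1.0 for alignment to mm10, removed duplicates and called regions in each library with HOMER findPeaks without an input control. Per the file headers, windows were 500 bp, stitched within 1000 bp, at a Poisson p of 0.001. The deposited values are signal, normalized tags per 10 M tags. Whole reads could not be recovered from them, so no count test was run. The catalogue number of the Pol II antibody differs between the labels and the methods.

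Regions were summed over gene windows (GENCODE vM21, GRCm38), a region partly inside a window being shared by its overlap. Protein-coding genes were measured and, beyond the planned set, 82 polymorphic pseudogenes, since Mx2 is one. Of 22033 genes, 54 with duplicated symbols were left out. Tests used limma 3.58.1 (R 4.3.3) on log2(normalized tags + 10) with 6 group means, an intensity trend and Benjamini-Hochberg adjustment over all genes tested, which had to have a region in 2 or more of the 3 libraries of 1 of the groups. A fold change on this scale understates the change of low genes. Calls were made at an adjusted p under 0.05, in 11 comparisons per antibody and 1 added after seeing the data. The test was checked on simulated data. Tables and figures were made with matplotlib 3.10.9, numpy 2.4.6 and pandas 2.3.3 in Python 3.11.15. Motifs were searched by their letters on both strands.

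The 10 genes, the pathway lists and the markers were chosen with earlier results of these data known. Every one of the 10 genes is named, and of the lists those given with values as examples. Some genes of the lists are not reported here. Alternatives were a pseudocount of 1 or 50, no filter on low values, median centring, quantile normalization, narrow windows around the start, subtraction of the input, a common density floor (8.87 tags per kb for Pol II and 11.7 for H3K27ac), no intensity trend, only the groups compared, a replicate block, a log2 change over 1, left-out replicates and, added after seeing the data, whole loci with 5 kb on each side.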

Additional observations from a re-analysis of the deposited data

Results flagged for a closer look

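The effect of LPS on Pol II differed between WT and KO macrophages, by the limma interaction test at an adjusted p under 0.05, in 19 results for these genes. From 0 to 1 h the differences (KO minus WT, log2 scale) were 0.46 for Ifit1, -0.60 for Ifit2, -0.91 for Mx1, -0.63 for Mx2 and -0.72 for Oasl1. The Ifit1 value lost its call without any 1 of the replicate numbers, under median centring, with a pseudocount of 50 and over the start alone (0.07), and its locus stood at -0.10. The Ifit2 value did not pass over the start alone (-0.63, adjusted p = 0.070), and the locus of Oasl2 and Oasl1 stood at -0.23 and did not pass (adjusted p = 0.10). From 0 to 18 h they were 1.24 for Ifit1, 0.54 for Ifit3, 0.84 for Mx2, 0.45 for Oas3 and 0.53 for Oasl2, of which Ifit3, Oas3 and Oasl2 did not pass over the start alone. Over the whole Ifit locus the value was 0.57. From 1 to 18 h, in the comparison added after seeing the data, the differences were 0.78 for Ifit1, 0.73 for Ifit2, 0.60 for Ifit3, 0.86 for Mx1, 1.47 for Mx2, 0.85 for Oas2, 0.78 for Oas3, 0.59 for Oasl1 and 0.59 for Oasl2. Of these, Oas2 (0.24) and Oas3 (0.17) did not pass over the start alone. Ifit3 (0.45) and Oasl1 (0.58) did not pass without replicate 3 of every group. Mx2 is the gene with a smaller rise in KO to 1 h and a larger one to 18 h, and Oasl1 and Oasl2 share one region at 1 and 18 h, so their equal values are a single observation. At 18 h Oas2 and Oas3 also share one region, and Ifit3 shares one with part of Ifit2, so the values of these neighbours are not independent either.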

How the results depend on the processing

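Of the counts of genes called, 338 stayed within 1.5 times their value under the alternatives and 32 did not. Of the levels per kb, 33 stayed and 27 moved. For Pol II, KO against WT at 0 h (5 genes) gave 1 with narrow windows, 0 with only the groups compared and 1 to 4 with a replicate left out. With a log2 change over 1 as well, the Pol II counts were 0 at 0 h, 1 at 1 h, 0 at 18 h, 0 and 1 for the interactions at 1 and 18 h and 1 for that from 1 to 18 h. The interaction at 1 h (5) gave 3 with narrow windows, and that at 18 h (5) gave 2 with narrow windows and 2 to 4 with a replicate left out. For H3K27ac at 18 h against 1 h, a log2 change over 1 left 3 genes in WT and 5 in KO, and KO gave 5 to 10 with a replicate left out. KO against WT gave 1 at 0 h with only the groups compared. At 1 h (7) it gave 1 with only the groups compared, 0 with a log2 change over 1 and 0 to 10 with a replicate left out. At 18 h it gave 0 to 1 with a replicate left out. The H3K27ac interaction at 1 h (0) gave 1 with the input subtracted, 1 with only the groups compared, 8 without replicate 1 of KO at 1 h and 0 to 9 with a replicate left out. That from 1 to 18 h (0) gave 3 after quantile normalization, 3 with the input subtracted, 7 without replicate 1 of KO at 1 h, 7 without replicate 1 of KO at 18 h and 0 to 9 with a replicate left out.

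Of the log2 changes of single genes that passed the test with or without the alternative, 7 changed sign (sign changes of values that passed in neither are not counted): for Pol II at 18 h against 1 h in WT, Ifit1 (-0.012) and Mx2 (-0.34) under median centring; Oas2 at 0 h with a narrow window (0.054); over whole loci, Oasl1 at 0 h (-0.0049), Ifit1 in the interaction at 1 h (-0.10) and Mx2 H3K27ac at 18 h against 1 h in WT (0.13); and Ifit3 H3K27ac in KO against WT at 18 h, from -0.31 to 0.27 with a replicate left out. The values over whole loci are those of the locus that holds the gene, neighbours included, and not of the gene alone. In WT at rest the mean Pol II of the Oasl2 to Oasl1 locus was 444 normalized tags and that of the Oasl1 window 11.5. The Ifit locus held 765 there and the Ifit1 window 45.0. The cause was not tested. Median centring gave 6 higher and 1 lower for Pol II at 18 h against 1 h in WT, 9 lower for KO against WT at 1 h and 6 lower and 0 higher for the interaction at 1 h. With a replicate block, H3K27ac gave 5 genes at 18 h against 1 h in WT and 6 for KO against WT at 1 h, and no other count moved. Same-numbered libraries did not deviate together (correlations from -0.07 to 0.11 for Pol II and -0.43 to 0.08 for H3K27ac over 45 pairs each), so the numbers were not read as pairs. Depth is known per library but not per region, so whole reads and counting intervals cannot be given.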
